A study of Mus musculus with 18 samples.

Results

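The respiratory chain genes carried in the nucleus were followed in splenic neutrophils of lupus-prone mice. Members were chosen by name alone: every row of the count table whose symbol starts with Nduf, Uqcr, Atp5, Cox4, Cox5, Cox6, Cox7 or Cox8, together with Sdha, Sdhb, Sdhc, Sdhd, Cyc1 and Cycs, and without assembly factors named Ndufaf or symbols containing -ps. This gave 83 of the 17941 genes in the table. Of these, 36 were placed in complex I, 4 in complex II, 9 in complex III, 16 in complex IV and 17 in complex V by symbol, and Cycs was kept apart as the mobile carrier. Ndufa4, which keeps a complex I name, was counted with complex IV. The 17 complex V names include Atp5s and Atp5sl, whose current symbols in RefSeq are Dmac2l and Dmac2. Neither is counted as an ATP synthase subunit under current naming, and both were kept because the choice is by symbol. Enough counts for a test were present for 77 of the 83, among 10104 genes tested.

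Complexes I to IV pass electrons from NADH and succinate to oxygen in the inner mitochondrial membrane, and complex V, the ATP synthase, uses the resulting proton gradient to make ATP. Most subunits are made from nuclear genes and imported, while a small core of complexes I, III, IV and V is encoded by mitochondrial DNA, so that both genomes supply each of those complexes. Mature neutrophils are known to hold few mitochondria and to draw most of their ATP from glycolysis.

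Spleens of NZBWF1/J females were taken at 14, 20 and 26 weeks; these hybrid mice acquire a disease resembling lupus as they grow older. No group was treated, all groups share strain and sex, and the youngest age is the reference, with no healthy strain beside it. The sort kept DAPI-negative singlets carrying CD11b, Ly6G and Ly6b, and Ly6C at an intermediate level. Each age has 6 libraries that the titles call biological replicates, here taken as 1 mouse each. Libraries held 5546624 to 17256379 counts. Of 13 neutrophil markers, Mpo and Elane averaged below 1 CPM (counts scaled to library size), while S100a8 and Mmp9 were abundant at every age. From 14 to 26 weeks S100a8 rose and Mmp9 fell, with log2 changes of 2.38 ± 0.40 and -0.90 ± 0.15 (SE). The 14, 20 and 26 week comparisons share libraries, so their values are set side by side and are not independent of one another.

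Promoter windows of 69 members were matched by symbol to RefSeq sequences of the GRCm38.p6 build, each running from 250 bases before to 50 bases after the gene's start. Letters recognised by factors known for mitochondrial genes were searched on both strands. The NRF1 letters GCGCATGC stood in windows of 11 members, 15.9% of 69, against 3.05% of 27025 genes of all kinds. The YY1 letters AAGATGGC were also present in 11 members (15.9%, against 3.19% of all genes). For the ETS letters CCGGAAGT, bound by GABP, the count was 5 members (7.25% against 4.31%). The SP1 letters GGGCGG were in 42.0% of members and 38.2% of all genes, and the TATA letters TATAAA in 7.25% and 15.7%. To show the NRF1 and ETS matches in place, the 250 bases before the start are given for a complex IV gene, the carrier and a complex V gene, with the matched letters in capitals.
Cox6a1, chr5:115348959-115349208, minus strand: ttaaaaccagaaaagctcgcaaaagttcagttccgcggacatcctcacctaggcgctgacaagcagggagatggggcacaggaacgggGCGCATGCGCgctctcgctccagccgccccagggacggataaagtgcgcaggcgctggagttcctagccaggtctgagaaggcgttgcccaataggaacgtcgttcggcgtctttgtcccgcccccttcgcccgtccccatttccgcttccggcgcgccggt
Cycs, chr6:50566570-50566819, minus strand: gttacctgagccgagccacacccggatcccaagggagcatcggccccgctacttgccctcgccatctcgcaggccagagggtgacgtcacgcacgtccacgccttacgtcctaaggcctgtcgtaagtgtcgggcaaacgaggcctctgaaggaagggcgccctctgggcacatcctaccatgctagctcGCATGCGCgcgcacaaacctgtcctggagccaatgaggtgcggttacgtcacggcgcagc
Atp5h, chr11:115419920-115420169, minus strand: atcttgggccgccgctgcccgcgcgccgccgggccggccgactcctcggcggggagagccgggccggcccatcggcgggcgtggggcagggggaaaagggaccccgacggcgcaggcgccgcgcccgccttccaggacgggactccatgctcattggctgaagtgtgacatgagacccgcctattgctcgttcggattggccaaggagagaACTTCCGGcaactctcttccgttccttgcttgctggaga
The capitals in Cox6a1 and Cycs mark NRF1 letters and those in Atp5h mark ETS letters; in Cox6a1 overlapping matches on both strands make a run of 10 capitals.

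The YY1 letters lay in a different place from the NRF1 letters. In 9 of the 11 members with a YY1 match it fell wholly after the start, on the strand of the gene, which was the case for 32.5% of the 862 genes of all kinds with the match. An NRF1 match fell wholly after the start in 1 of 11 members. The short sites below, with YY1 letters in capitals, are those of the 9 members with a match and a single window in RefSeq.
Ndufa3, chr7:3617385-3617412, plus strand: cgccaagaacAAGATGGCcgggagtaag
Ndufa9, chr6:126849098-126849125, minus strand: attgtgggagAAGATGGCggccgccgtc
Ndufc1, chr3:51408916-51408943, minus strand: cctgcggaacAAGATGGCgccgtccgta
Ndufs4, chr13:114388045-114388069, minus strand: tgcctacaggAAGATGGCggcggtc
Ndufs6, chr13:73328433-73328459, minus strand: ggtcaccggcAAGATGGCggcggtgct
Ndufs7, chr10:80249463-80249490, plus strand: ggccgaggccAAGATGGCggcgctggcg
Ndufb8, chr19:44555393-44555414, minus strand: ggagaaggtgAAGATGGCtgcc
Atp5j2, chr5:145191501-145191528, minus strand: ccaggacttcAAGATGGCgtcactcggt
Atp5f1, chr3:105959249-105959276, minus strand: tgtgcgagcgGCCATCTTgctcctgccc
All but Atp5f1 carry the letters in the same orientation, with their first base 23 to 39 bases from the start. A match of letters is a description of these windows only. Among 40 members with a window that were higher at 26 than at 14 weeks, 6 held NRF1 letters and 6 YY1 letters, and among 25 tested members that were not called the counts were 5 and 5.

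Most tested members were higher at 26 weeks than at either earlier age, and 3 of 77 were called between 14 and 20 weeks. Against 14 weeks, 49 of 77 tested members were higher at 26 weeks at an adjusted p under 0.05 (edgeR quasi-likelihood test), where 5.45% of all genes tested were called higher. None of the 77 was lower, where 5.54% of all genes were; the count of lower members was also 0 at an unadjusted p under 0.05, with DESeq2 and with limma-voom. The median log2 change of the members was 1.33, a 2.51-fold level, beside 0.04 over all genes tested, and 75 of 77 values were above 0. Against 20 weeks, 48 members were higher at 26 weeks (8.03% of all genes) and 1, Sdha, was lower (7.98% of all genes), with a median of 1.34 beside 0.05. Between 14 and 20 weeks only 2 members rose (4.93% of all genes) and 1 fell (5.27% of all genes), and the median was 0.00 beside -0.02. In bulk RNA from sorted cells, a different mix of cells and a different amount of RNA per cell cannot be told apart.

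The summed level of all members was 2670 ± 190 CPM at 14 weeks, 2796 ± 301 CPM at 20 weeks and 4671 ± 1311 CPM at 26 weeks (mean ± SD, n = 6 each), a ratio of 1.75 between the oldest and the youngest mice. The complexes rose by unequal ratios, which are not their shares of the added CPM. Complex IV subunits summed to 2.79 times their level at 14 weeks, complex I to 2.01 times, complex III to 1.68 times, complex V to 1.46 times and complex II to 1.32 times. Mean sums at 14 and 26 weeks were 690 and 1386 CPM for complex I, and 286 and 798 CPM for complex IV. For complex V they were 1039 and 1518 CPM, for complex III 283 and 474 CPM, and for complex II 369 and 488 CPM. At 26 weeks the mice were also far apart, with member sums from 2924 CPM in replicate 4 to 6144 CPM in replicate 5. Replicate 4 lay inside the range of the 12 younger mice, which ran from 2265 to 3083 CPM, and the other 5 mice of 26 weeks lay above it.

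**Figure D1:**
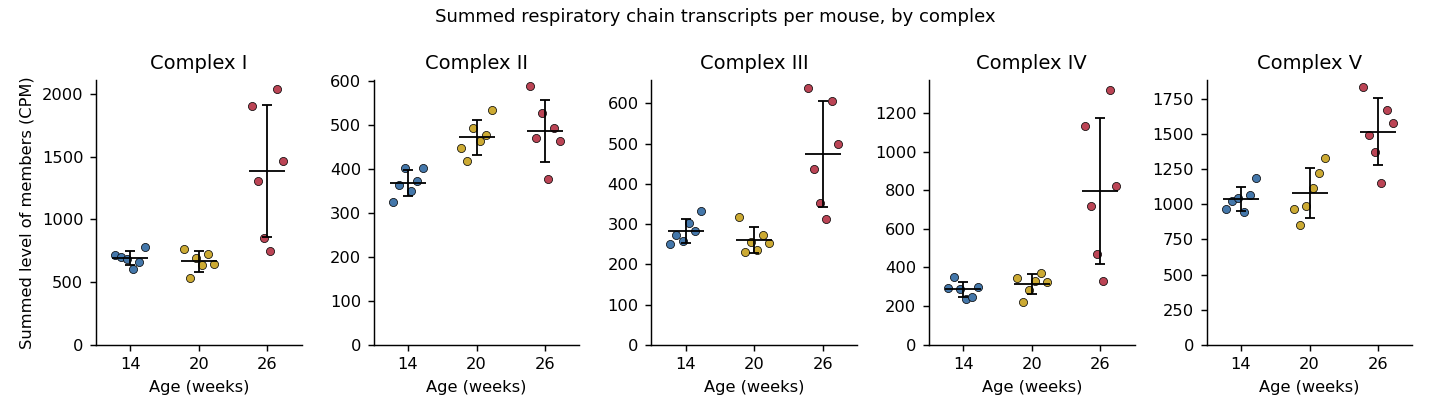
Summed CPM of the members of complexes I to V (vertical axes, each starting at 0) at 14, 20 and 26 weeks; a point is 1 mouse, in order of replicate number, and the bar and whiskers are the mean ± SD of 6 mice. The 26 week mice spread most widely in complexes I and IV, and replicate 4 is the lowest of them in every complex.

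The same mice stood high or low across members at 26 weeks. Replicate 1 or 5 had the highest level in 70 of 77 tested members, both were the top pair in 51, and replicate 4 was the lowest in 56. All 6 mice of 26 weeks lay above all 6 of 14 weeks in 14 members (18.2%, beside 2.9% of all genes tested), and above all 6 of 20 weeks in 18 members (23.4%, beside 3.69%). The 14 were Atp5c1, Atp5d, Atp5j, Atp5l, Cox5b, Cox6c, Cyc1, Cycs, Ndufa10, Ndufa3, Ndufb5, Ndufc1, Uqcrb and Uqcrq. Those clear of 20 weeks were Atp5c1, Atp5f1, Atp5j, Atp5j2, Atp5k, Atp5l, Atp5o, Cox5a, Cox6c, Cyc1, Ndufa1, Ndufa11, Ndufa4, Ndufa6, Ndufa9, Ndufc1, Ndufs6 and Uqcrc2. Atp5l, named in both, had at most 1.13 CPM at 14 weeks and 0.69 CPM at 20 weeks, and 1.14 to 1.90 CPM at 26 weeks. The filter on counts by age can keep a gene this low through its highest age, so its separation may follow from the filter.

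**Figure D2:**
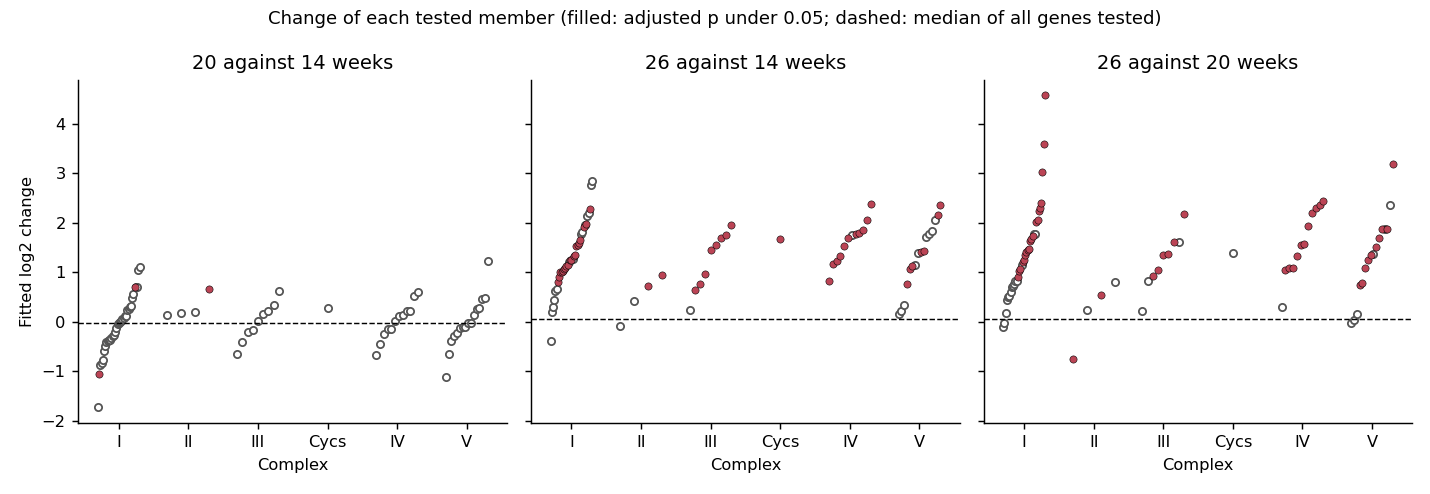
Fitted log2 change (vertical axis) of each of the 77 tested members in the 3 comparisons, by complex and in order of size within a complex; filled points passed an adjusted p under 0.05 and the dashed line is the median of all genes tested. In both comparisons with 26 weeks nearly all points lie above the line, and 11 of 12 complex IV members are filled.

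In complex I, which takes electrons from NADH, 20 of 35 tested members rose from 14 to 26 weeks (median log2 change 1.25) and 20 from 20 to 26 weeks (1.25). Accessory subunits, which surround the catalytic core, made up most of these calls: 17 of 28 were higher at 26 than at 14 weeks and 19 of 28 were higher than at 20 weeks. Of the 7 nuclear-encoded core subunits, which form the arm that moves electrons from NADH to quinone, 3 and 1 were higher. The difference between core and accessory subunits was not tested. Ndufa8, an accessory subunit with one of the highest mean CPM values of the complex, had lowest, median and highest levels of 51.7, 71.6 and 82.2 CPM at 14 weeks, 40.8, 54 and 75.4 CPM at 20 weeks and 61.9, 108 and 153 CPM at 26 weeks. It was 2.03 times higher at 26 than at 20 weeks, a log2 change of 1.02 ± 0.22 (SE, edgeR adjusted p = 0.00331), and missed the threshold against 14 weeks, 0.66 ± 0.22 (SE, edgeR adjusted p = 0.0553). The ranges of all 3 ages overlapped.

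Ndufs1 stood at the lower end of complex I. It encodes the largest core subunit, which holds several iron-sulfur clusters, and its lowest, median and highest levels were 37.2, 42.4 and 47.9 CPM at 14 weeks, 16.4, 38.4 and 48.2 CPM at 20 weeks and 13.4, 32.1 and 52.5 CPM at 26 weeks. Its log2 change from 14 to 26 weeks was -0.39 ± 0.30 (SE, edgeR adjusted p = 0.5), with 2 of 6 old mice above the young median. Ndufc1, a small membrane subunit, stood at the upper end with 0.257, 1.5 and 1.64 CPM at 14 weeks, 0, 0.246 and 1.15 CPM at 20 weeks and 2.69, 8.44 and 21.6 CPM at 26 weeks. It was near the floor of detection in young mice, with 26 counts over the 6 libraries of 20 weeks, and every 26 week mouse lay above every younger one. Its log2 change was 4.57 ± 1.05 (SE, edgeR adjusted p = 0.00528) against 20 weeks and 2.85 ± 0.96 (SE, edgeR adjusted p = 0.063) against 14 weeks. Ndufc1 shares stretches of at least 100 bases with 25 other genes, so its reads may be split between them.

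In complex I, 2 members changed between 14 and 20 weeks, in opposite directions. Ndufs7, the core subunit with the last iron-sulfur cluster before quinone, had 20.6, 29.9 and 35.2 CPM at 14 weeks, 41, 46.4 and 56.3 CPM at 20 weeks and 33.2, 67.3 and 94.1 CPM at 26 weeks. All 6 mice of 20 weeks lay above all 6 of 14 weeks, and no other tested member showed this, so that it held for 1 of 77 members beside 2.97% of all genes tested. The log2 change was 0.70 ± 0.22 (SE, edgeR adjusted p = 0.0442) at 20 weeks and 1.14 ± 0.22 (SE, edgeR adjusted p = 0.00329) at 26 weeks, both against 14 weeks. Ndufs7 lies at chr10:80249121-80256794 (plus strand, GRCm38) and was picked out after its values were seen. Ndufv3, a small accessory subunit beside the NADH site, dipped at 20 weeks, with 24.1, 35.6 and 41.2 CPM at 14 weeks, 7.13, 17.2 and 24.6 CPM at 20 weeks and 21, 37.9 and 61.4 CPM at 26 weeks. The 20 week level was lower than at 14 weeks, -1.05 ± 0.29 (SE, edgeR adjusted p = 0.0267), and the 26 week level was higher than at 20 weeks, 1.25 ± 0.30 (SE, edgeR adjusted p = 0.00648). Only the highest mouse of 20 weeks and the lowest of 14 weeks crossed. Both 20 week calls lay near the threshold. Ndufs7 lost its call in 12 of 18 fits with a library removed, where its log2 change was 0.61 to 0.74 and its edgeR adjusted p up to 0.108 (without 14 weeks replicate 4). Ndufv3 lost its call in 4 of 18, with log2 changes of -1.03 to -0.89 (without 14 weeks replicates 1 or 4 or 20 weeks replicates 4 or 6, edgeR adjusted p up to 0.0637).

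Complex II, succinate dehydrogenase, links the tricarboxylic acid cycle to the chain and has no mitochondrially encoded subunit. From 14 to 26 weeks 2 of its 4 members rose, Sdhb and Sdhc, with a median log2 change of 0.57. Sdhd, a membrane anchor, had 121, 135 and 150.0 CPM at 14 weeks, 111, 162 and 183 CPM at 20 weeks and 136, 184 and 231 CPM at 26 weeks. Its log2 change was 0.42 ± 0.14 (SE, edgeR adjusted p = 0.0574) and its ranges overlapped. Sdhc, the other anchor, had 12.9, 24.2 and 32.4 CPM at 14 weeks, 17.4, 25.5 and 33 CPM at 20 weeks and 26.9, 39.1 and 78.7 CPM at 26 weeks and a log2 change of 0.94 ± 0.29 (SE, edgeR adjusted p = 0.0391). This call was lost in 8 of 18 fits without 1 library, with adjusted p up to 0.124 (without 26 weeks replicate 1).

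Sdha was higher at 20 weeks than at both other ages. It encodes the flavin subunit that oxidises succinate and lies at chr13:74322254-74350280 (minus strand, GRCm38). Its levels were 102, 117 and 147 CPM at 14 weeks, 127, 189 and 259 CPM at 20 weeks and 67.5, 117 and 173 CPM at 26 weeks. The 20 week mice were the high group, although their range overlapped both others. The log2 change was 0.66 ± 0.20 (SE, edgeR adjusted p = 0.041) from 14 to 20 weeks and -0.75 ± 0.20 (SE, edgeR adjusted p = 0.0141) from 20 to 26 weeks, which left 26 weeks close to 14 weeks, -0.09 ± 0.20 (SE, edgeR adjusted p = 0.856). The rise to 20 weeks was lost in 9 of 18 fits without 1 library, with adjusted p up to 0.111 (without 20 weeks replicate 6).

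Complex III carries electrons from quinol to cytochrome c, and 8 of its 9 members rose from 14 to 26 weeks (median log2 change 1.45), with 6 of 9 higher than at 20 weeks. The exception was Uqcrc1, the larger core protein, which had 91.1, 117 and 136 CPM at 14 weeks, 90.8, 113 and 139 CPM at 20 weeks and 111, 129.8 and 176 CPM at 26 weeks. Its log2 change from 14 to 26 weeks was 0.23 ± 0.15 (SE, edgeR adjusted p = 0.381), and the 3 ranges overlapped. Uqcrc2, the partner core protein, had 60.6, 65.1 and 78 CPM at 14 weeks, 32.4, 50.8 and 64.5 CPM at 20 weeks and 64.8, 112 and 128 CPM at 26 weeks. Every 26 week mouse lay above every 20 week mouse, with a log2 change of 1.05 ± 0.18 (SE, edgeR adjusted p = 0.000893). Against 14 weeks the change was 0.63 ± 0.18 (SE, edgeR adjusted p = 0.0309), lost in 9 of 18 fits without 1 library (adjusted p up to 0.073, without 26 weeks replicate 1). Uqcrb, a small quinone-binding subunit, had the largest change of the complex and 5.38, 7.82 and 9.18 CPM at 14 weeks, 3.26, 6.04 and 11.1 CPM at 20 weeks and 10.1, 26.9 and 57.6 CPM at 26 weeks. No 26 week mouse overlapped the 14 week mice, and the log2 change was 1.96 ± 0.44 (SE, edgeR adjusted p = 0.00723). Its transcript is at least 95% identical to 3 pseudogenes over 100 bases or more, so its counts are uncertain.

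Cycs, cytochrome c, moves electrons from complex III to complex IV and also takes part in apoptosis once released from mitochondria. Its lowest, median and highest levels were 1.02, 2.44 and 3.9 CPM at 14 weeks, 2.19, 2.78 and 4.29 CPM at 20 weeks and 4.25, 6.96 and 15.7 CPM at 26 weeks. The 26 week mice lay above all 14 week mice, while the lowest of them and the highest mouse of 20 weeks overlapped. The log2 change was 1.68 ± 0.51 (SE, edgeR adjusted p = 0.0391) against 14 weeks and 1.39 ± 0.51 (SE, edgeR adjusted p = 0.0671) against 20 weeks. The first was lost in 9 of 18 fits without 1 library, with adjusted p up to 0.117 (without 26 weeks replicate 5). Cycs has 3 pseudogene copies at that identity, among them Gm10108 and Gm13772, both 99.4% identical, over 319 and 317 bases. It also shares such stretches with 48 other genes, and its counts are likewise uncertain.

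Complex IV, cytochrome c oxidase, reduces oxygen to water, and its catalytic core is mitochondrially encoded, so that all members here are supporting subunits. Of 12 tested members 11 rose from 14 to 26 weeks (median log2 change 1.73) and 11 rose from 20 to 26 weeks (1.56). Cox7c missed the threshold in the first and Cox7a2l in the second. Cox4i1, the largest nuclear subunit, had 74.3, 97.5 and 105 CPM at 14 weeks, 80.2, 102 and 119 CPM at 20 weeks and 100.0, 200.4 and 324 CPM at 26 weeks. The lowest mouse of 26 weeks, replicate 4, lay within the range of the young mice and the other 5 lay above it. The log2 change from 14 to 26 weeks was 1.16 ± 0.22 (SE, edgeR adjusted p = 0.0037). Cox6a1 had 31.1, 42.6 and 56.6 CPM at 14 weeks, 30.1, 50.5 and 69.7 CPM at 20 weeks and 44, 117 and 213 CPM at 26 weeks, with overlap in replicate 4 and a log2 change of 1.53 ± 0.30 (SE, edgeR adjusted p = 0.00359). This is the gene whose promoter window with the NRF1 letters is given above.

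Cox6c, a short membrane subunit, had the largest fitted change of complex IV from 14 to 26 weeks. Its levels were 8.01, 10.0 and 13.8 CPM at 14 weeks, 6.83, 12 and 14.3 CPM at 20 weeks and 20.9, 55.7 and 105 CPM at 26 weeks. Every mouse of 26 weeks lay above all 12 younger mice, and the groups of 14 and 20 weeks overlapped one another. The log2 change was 2.37 ± 0.37 (SE, edgeR adjusted p = 0.00149) against 14 weeks and 2.35 ± 0.37 (SE, edgeR adjusted p = 0.000456) against 20 weeks, a fitted ratio of 5.18 and 5.12; against 20 weeks the fitted change of Cox7c was larger, at 2.43 ± 0.68 (SE, edgeR adjusted p = 0.019). Cox6c lies at chr15:35925886-35938246 (minus strand, GRCm38). It shares 231 bases at 97.0% identity with Cox6c2 and a shorter stretch with Gm16399. At the lower end stood Cox7a2l, which takes part in joining complexes III and IV into supercomplexes, with 14, 19.4 and 23.2 CPM at 14 weeks, 22.2, 26.6 and 38.5 CPM at 20 weeks and 18.2, 33.9 and 51.2 CPM at 26 weeks. Its ranges overlapped, and its log2 change from 14 to 26 weeks of 0.81 ± 0.24 (SE, edgeR adjusted p = 0.0368) was lost in 9 of 18 fits without 1 library (adjusted p up to 0.109, without 26 weeks replicate 1).

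Subunits of complex IV that exist as tissue isoforms were read as the common form. Cox6b1 had 18, 26.2 and 43.9 CPM at 14 weeks, 19.9, 33.6 and 47.1 CPM at 20 weeks and 36.9, 93.6 and 174 CPM at 26 weeks and Cox8a had 11.2, 16.3 and 29 CPM at 14 weeks, 17.8, 30.3 and 33.4 CPM at 20 weeks and 21.1, 61.3 and 104 CPM at 26 weeks. Their log2 changes from 14 to 26 weeks were 1.78 ± 0.34 (SE, edgeR adjusted p = 0.0035) and 1.70 ± 0.32 (SE, edgeR adjusted p = 0.00329). Cox7a2, the form outside muscle, had 7.31, 12.5 and 15.4 CPM at 14 weeks, 5.94, 11 and 16.3 CPM at 20 weeks and 12.2, 43.5 and 111 CPM at 26 weeks, with a change of 2.06 ± 0.44 (SE, edgeR adjusted p = 0.00602). Ndufa4 had 3.85, 5.73 and 10.4 CPM at 14 weeks, 3.95, 5.78 and 7.89 CPM at 20 weeks and 8.08, 23.4 and 37.3 CPM at 26 weeks, with a change of 1.79 ± 0.41 (SE, edgeR adjusted p = 0.00825). The 26 week ranges of all 4 overlapped those of 14 weeks through their lowest mice. The alternative forms were close to absent: Cox4i2 had 2 counts in all, Cox7a1 12 counts and Cox8c, a testis form, 4 counts over the 18 libraries. For Cox6b2, another testis form, 23 counts were found at 14 weeks, with 3 at 20 and 74 at 26 weeks, and its lowest, median and highest levels at 26 weeks were 0.34, 1.41 and 3.77 CPM. All 6 of those mice lay above all 6 of 20 weeks, but the gene was too low to be tested. Cox4i2 and Cox8c had 0 counts over the 6 libraries of 14 weeks, which allows up to 3 counts for each. Cox6a2, Cox8b and Ndufa4l2 are not analysed here.

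In complex V, 7 of 16 tested members rose from 14 to 26 weeks (median log2 change 1.39) and 10 rose from 20 to 26 weeks (1.35). Without Atp5s and Atp5sl the same calls were made among 15 members, with medians of 1.40 and 1.37, and the summed level at 26 weeks stayed 1.46 times that at 14 weeks. The main parts of the catalytic head did not pass the test. Atp5b, the catalytic beta subunit, had 363, 407 and 500.2 CPM at 14 weeks, 355, 493 and 636 CPM at 20 weeks and 397, 484 and 557 CPM at 26 weeks. Its log2 change from 14 to 26 weeks was 0.22 ± 0.14 (SE, edgeR adjusted p = 0.379), and all ranges overlapped. Atp5a1, the alpha subunit, had 135, 164 and 192 CPM at 14 weeks, 127, 173 and 240.5 CPM at 20 weeks and 140.1, 189.7 and 200.3 CPM at 26 weeks and a change of 0.16 ± 0.16 (SE, edgeR adjusted p = 0.623), the smallest of the complex. The stalk parts of the head, Atp5c1, Atp5d and Atp5e, all rose. Atp5e, the shortest of them, had 3.43, 5.98 and 9.04 CPM at 14 weeks, 3.44, 8.74 and 15.6 CPM at 20 weeks and 7.57, 24.9 and 75 CPM at 26 weeks. The lowest mouse of 26 weeks lay inside both younger ranges. Its log2 change from 14 to 26 weeks was 2.35 ± 0.51 (SE, edgeR adjusted p = 0.00602), the largest of the complex. Against 20 weeks its change of 1.88 ± 0.50 (SE, edgeR adjusted p = 0.0134) was lost without 26 weeks replicate 5 (adjusted p = 0.0588).

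Among the membrane and peripheral stalk parts, Atp5f1, subunit b, had 146, 173 and 198 CPM at 14 weeks, 109.8, 134 and 159 CPM at 20 weeks and 169, 227 and 273 CPM at 26 weeks. Its 26 week mice lay above all 20 week mice, with a log2 change of 0.74 ± 0.14 (SE, edgeR adjusted p = 0.00139), while the change against 14 weeks was 0.35 ± 0.14 (SE, edgeR adjusted p = 0.121). It has 2 pseudogene copies. Subunit c, which forms the rotating ring, is made from 3 genes that give the same mature protein. Atp5g3 had the highest level per length of the 3, 17.5 CPM per kb, with 3.18, 5.34 and 9.18 CPM at 14 weeks, 5.55, 6.9 and 8.33 CPM at 20 weeks and 6.74, 21.5 and 48.4 CPM at 26 weeks and a change from 14 to 26 weeks of 2.15 ± 0.43 (SE, edgeR adjusted p = 0.00412). Atp5g1 had 0.57, 1.35 and 3.64 CPM at 14 weeks, 0.904, 1.84 and 4.21 CPM at 20 weeks and 1.76, 4.96 and 12.1 CPM at 26 weeks and Atp5g2 had 0.342, 0.534 and 0.866 CPM at 14 weeks, 0, 0.175 and 1.1 CPM at 20 weeks and 0.794, 1.53 and 4.19 CPM at 26 weeks. Their changes were 1.83 ± 0.67 (SE, edgeR adjusted p = 0.0877) and 1.70 ± 0.88 (SE, edgeR adjusted p = 0.258), which missed the threshold, and both have 2 pseudogene copies. Atp5g1 also shares stretches of at least 100 bases with 17 other genes. At these levels, 39 counts over 6 libraries for Atp5g2 at 14 weeks, a change of this size did not pass the test.

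**Figure D3:**
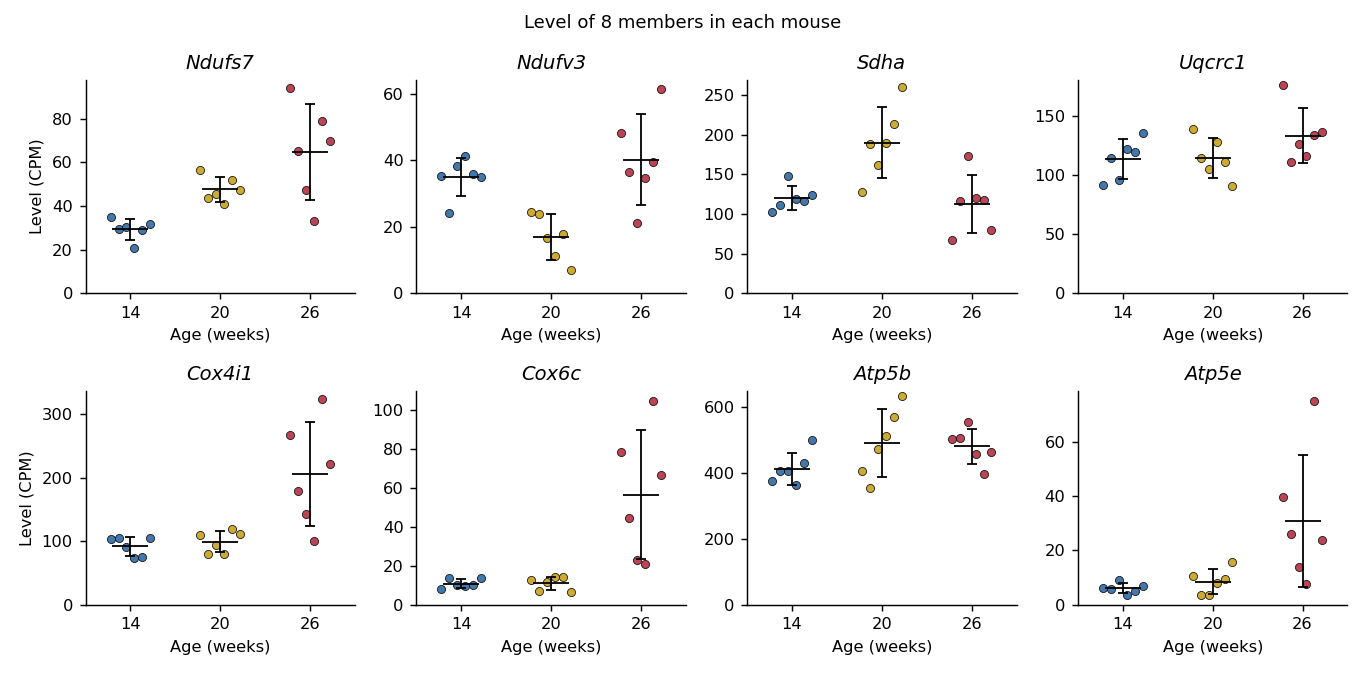
CPM (vertical axes, each starting at 0) of 8 members at 14, 20 and 26 weeks; a point is 1 mouse, in order of replicate number, and the bar and whiskers are the mean ± SD of 6 mice. Cox6c at 26 weeks stands clear of both younger ages, Uqcrc1 and Atp5b overlap throughout, Sdha is highest at 20 weeks and Ndufv3 is lowest there.

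The 28 members not called from 14 to 26 weeks fell into 2 kinds by level, a split made after their values were seen. Of these, 11 averaged under 5 CPM over the 18 libraries, and their fitted log2 changes were 1.26 to 2.85 with wide SE of 0.67 to 1.34. The filter on counts by age can keep a gene this low through the age where it is highest. The size of these changes was therefore not compared with that of called members. They were Atp5g1, Atp5g2, Atp5k, Atp5l, Atp5sl, Ndufa12, Ndufa5, Ndufab1, Ndufb2, Ndufb4 and Ndufc1. The other 17 had a median log2 change of 0.42, with the lowest in Ndufs1 (-0.39 ± 0.30, SE) and the highest in Ndufc2 (2.77 ± 0.94, SE). They included Atp5a1, Atp5b, Atp5f1, Cox7c, Ndufa8, Ndufc2, Ndufs1, Ndufs6, Ndufv3, Sdha, Sdhd and Uqcrc1.

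Levels were compared between genes only after division by transcript length. Per kilobase, Atp5b was the highest member at 241 CPM per kb, followed by Cox4i1 at 173, and the median member stood at 26.9 CPM per kb. The lowest tested members were Ndufb2 at 0.595 and Atp5g1 at 0.665 CPM per kb, whose annotated main transcripts of 4371 and 4715 bases are long for such small proteins. In complex II the per-length levels ran from 9.86 for Sdhc to 129 for Sdhd, and in complex III from 11.5 for Uqcr11 to 72.8 for Uqcrc1. As a description, the 22 tested members with at least 1 copy had a median of 11.2 CPM per kb and the 55 without had 30.6 CPM per kb. A gain from 14 to 26 weeks was called in 11 of the 22 (median log2 change 1.73) and in 38 of the 55 (median 1.23). Counts of the 23 members with a copy, 1 of them untested, are uncertain, since how the authors treated reads with several matches is not stated in the labels. Of the 60 members without a copy, 15 share stretches of at least 100 bases with other genes, so that group is not free of this limit. Ndufs5, untested with 20 counts in all, is 99.4% identical to BC002163 over 319 bases.

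The fitted change at 26 weeks was larger in short than in long members. Over the 77 tested members, Spearman's rho between transcript length and log2 change was -0.54 for 26 against 14 weeks, -0.61 for 26 against 20 weeks and 0.23 for 20 against 14 weeks, given as descriptions across genes of the same libraries. Over all 9939 tested genes with a length the values were -0.36, -0.19 and -0.13, so genes of other kinds moved with length too. The members are short, with a median of 908 bases among those tested beside 2805 bases for all genes. Calls from 14 to 26 weeks were also counted within length classes, and the differences between members and other genes were not tested. Up to 700 bases 21 of 26 members rose (median 1.73), beside 17.2% of 424 other genes (0.72). From 701 to 1000 bases it was 11 of 16 (1.19) beside 22.5% of 493 (0.85), and from 1001 to 1500 bases 10 of 14 (1.04) beside 12.7% of 1007 (0.55). Among longer transcripts, 5 of 14 members of 1501 to 2500 bases rose (0.53) beside 4.19% of 2289 (0.16), and 2 of 7 above that (1.26) beside 1.52% of 5649 (-0.20). Members with a high mean CPM changed less, with a rho of -0.70 between mean CPM and log2 change from 14 to 26 weeks. Over all tested genes with a length that rho was -0.28. From 20 to 26 weeks the values were -0.51 for members and -0.18 for all genes. The filter by age can keep low genes through the age where they are highest, so these values are descriptions only.

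**Figure D4:**
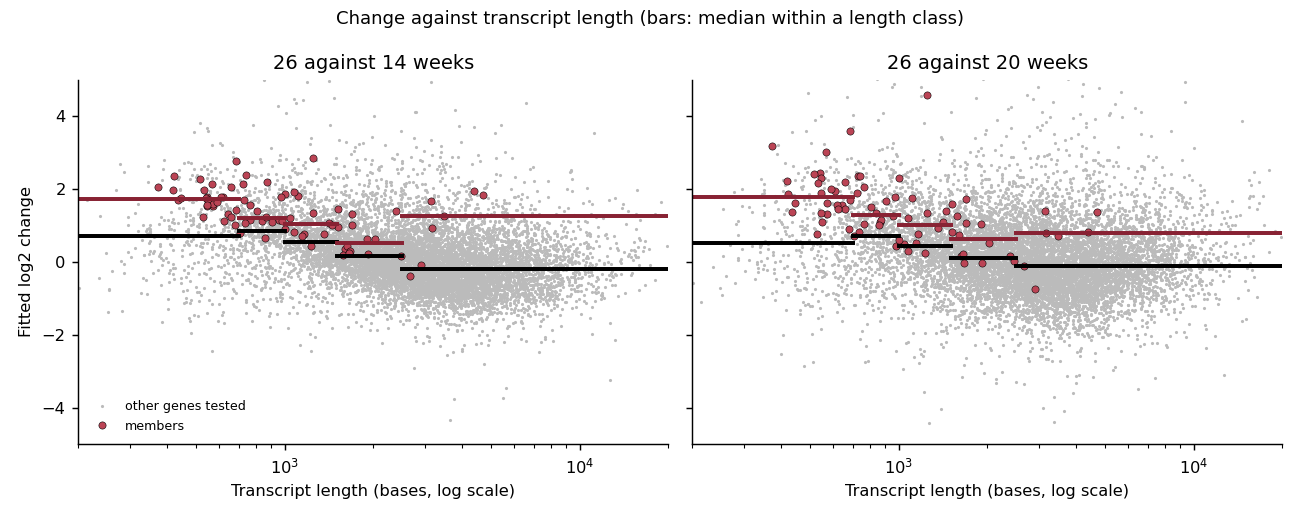
Fitted log2 change (vertical axis) against transcript length in bases (horizontal axis, log scale), with the few points beyond the axes not drawn, for 26 against 14 and 26 against 20 weeks; red points are the members, grey points the other genes tested, and horizontal bars the median of members (dark red) and of other genes (black) within 5 length classes. The members' median lies above that of the other genes in each class. Medians of other genes are highest from 701 to 1000 bases and lowest in the longest class. The members' medians fall with length up to 2500 bases and are higher again in the 7 longer members.

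A fit in which a smooth curve of transcript length was taken out of each library kept the direction and lowered the counts. From 14 to 26 weeks 15 members were then higher and 0 lower, with a median log2 change of 0.65 and 72 of 77 values above 0, where 2.71% of all genes were higher and 3.54% lower. All 15 were among the 49: Ndufa3, Ndufb5, Ndufs4 and Ndufs7 of complex I, Sdhc, Uqcrq, Cycs, Cox6a1, Cox6b1, Cox6c, Cox7a2 and Cox8a of complex IV, and Atp5e, Atp5g3 and Atp5j of complex V. From 20 to 26 weeks 38 were higher (6.98% of all genes) and 0 lower (6.87% of all genes), with a median of 0.83. Of the 38, 36 were among the 48, and Sdha no longer passed as lower (log2 change -0.57 ± 0.19, edgeR adjusted p = 0.0535). Between 14 and 20 weeks 2 were higher (5.22% of all genes) and 3 lower (5.73%). Complex IV kept 5 of 12 and complex I 4 of 35 in the comparison with 14 weeks. The corrected medians of complexes I to V were 0.65, 0.12, 0.62, 0.81 and 0.66 in that comparison. From 20 to 26 weeks they were 0.95, 0.03, 0.64, 0.87 and 0.88. The complexes differ in length, with a median transcript of 631.5 bases in complex IV and 2065.5 bases in complex II. Differences between complexes were not tested.

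The level of the members went with other measures of the libraries at 26 weeks. Ribosomal RNA counts were 0.0197 to 0.0252% of a library at 14 weeks, 0.00929 to 0.0451% at 20 weeks and 0.0456 to 0.440% at 26 weeks. Among the 6 old mice the order from high to low was replicate 5, 1, 6, 2, 3 and 4 for ribosomal RNA, for the share of mitochondrial transcripts, for the summed cytosolic ribosomal protein genes and for the summed members. Complexes I and IV and Cycs had that order as well, complexes III and V differed from it only in their top pair, and complex II did not follow it. Ribosomal RNA and the mitochondrial share are not separate measures, because both count mt-Rnr2, a mitochondrial ribosomal RNA. It averaged 188 ± 15.3, 230 ± 114 and 927 ± 573 CPM at 14, 20 and 26 weeks (mean ± SD, n = 6). Rn18s-rs5, also counted as ribosomal RNA, averaged 34.5 ± 12.6, 18.2 ± 14.3 and 1058 ± 1136 CPM. The matching order of those 2 measures is therefore partly built in. The summed ribosomal protein genes were 882 ± 103 CPM at 14 weeks, 1006 ± 216 CPM at 20 weeks and 2496 ± 1123 CPM at 26 weeks (mean ± SD, n = 6). The part of these measures in the members' rise was not tested. Genes detected ranged from 8119 to 13164 per library, with the fewest in 20 weeks replicate 3. At 26 weeks their order from high to low was replicate 4, 3, 6, 2, 1 and 5. Replicate 5 of 26 weeks had 10950 genes detected and, with 5546624, the fewest counts of all libraries.

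**Figure D5:**
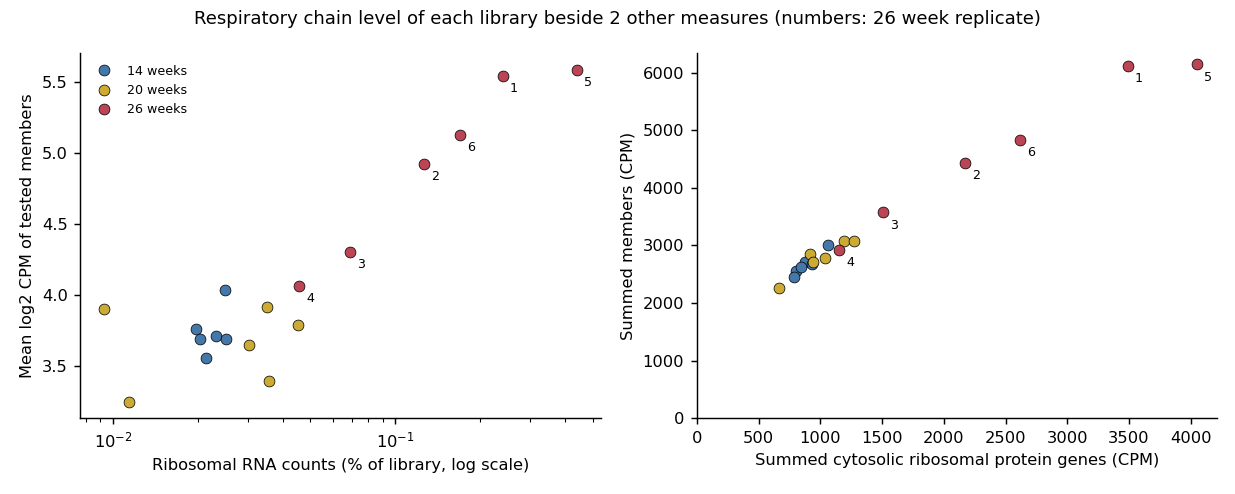
Left, mean log2 CPM of the 77 tested members (vertical axis) against ribosomal RNA counts as a percentage of the library (log scale); right, summed CPM of the members against summed CPM of cytosolic ribosomal protein genes, both axes from 0. A point is 1 library, coloured by age, and numbers give the replicate at 26 weeks: replicates 1 and 5 lie at the top right and replicate 4 beside the younger mice.

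Without the pair of 26 week libraries highest in ribosomal RNA, replicates 1 and 5, fewer members passed. From 14 to 26 weeks 8 of 78 tested members were then higher and 0 lower (Atp5c1, Atp5j, Cox4i1, Cox6a1, Cox6c, Cox8a, Ndufa9 and Ndufs7), beside 0.834% of all genes called higher and 0.965% lower, while calls over all genes in both directions went from 1111 to 192. The median log2 change was 0.91, and 77 of 78 values were above 0. From 20 to 26 weeks 23 were higher (3.49% of all genes) and 0 lower (3.05%), with a median of 0.91. Leaving out replicate 1 alone gave 32 higher at 26 than at 14 weeks, and leaving out replicate 5 alone gave 33.

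Mitochondrially encoded chain proteins were counted beside the nuclear members. Over all genes tested, 5.45% were called higher from 14 to 26 weeks and 8.03% from 20 to 26 weeks. From 14 to 20 weeks 5.27% were called lower. Of 7 tested, 5 were higher at 26 than at 14 weeks (median log2 change 1.72) and 7 higher than at 20 weeks (2.58), while 3 were lower at 20 than at 14 weeks (median -1.24, beside 0.00 for the nuclear members). The gene mt-Cytb, cytochrome b of complex III, averaged 74.5 ± 17.8, 31.4 ± 10.4 and 188 ± 68.4 CPM at 14, 20 and 26 weeks (mean ± SD, n = 6). Its log2 change was -1.25 ± 0.27 (SE, edgeR adjusted p = 0.0054) from 14 to 20 weeks and 1.33 ± 0.27 (SE, edgeR adjusted p = 0.00462) from 14 to 26 weeks. The catalytic subunit of complex IV, mt-Co1, averaged 124 ± 26.5, 61.9 ± 28.1 and 329 ± 114 CPM, with changes of -1.01 ± 0.28 (SE, edgeR adjusted p = 0.0269) and 1.40 ± 0.28 (SE, edgeR adjusted p = 0.00473). Whether both genomes differed in their change to 20 weeks was not tested.

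Further lists of mitochondrial genes are set beside the chain. Over all genes tested, 5.45% were called higher and 5.54% lower from 14 to 26 weeks. Of 34 tested assembly factors 3 were higher and 0 lower at 26 than at 14 weeks (median log2 change 0.87), among them Coa3, needed to build complex IV, at 1.14 ± 0.25 (SE, edgeR adjusted p = 0.00709), and Cox20 at 2.74 ± 0.66 (SE, edgeR adjusted p = 0.0113). The tricarboxylic acid cycle and pyruvate dehydrogenase had 1 of 15 higher (median 0.22), which was Pdhb at 0.77 ± 0.22 (SE, edgeR adjusted p = 0.0293). Calls in both lists were few, near the share over all genes, and are not read as a result for either list. Import components had 6 of 20 higher (0.96), including Timm17b of the inner membrane channel at 1.06 ± 0.19 (SE, edgeR adjusted p = 0.00208). Of 5 carriers and porins 2 were higher: Slc25a5, the ADP/ATP exchanger, at 0.75 ± 0.16 (SE, edgeR adjusted p = 0.0066), and Slc25a3, the phosphate carrier, at 0.70 ± 0.20 (SE, edgeR adjusted p = 0.0315). Slc25a5 was higher still at 20 weeks, with 219 ± 29.6, 529 ± 84.0 and 368 ± 94.9 CPM at the 3 ages (mean ± SD, n = 6).

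Regulators of mitochondrial biogenesis gave no call in 26 against 14 weeks. With edgeR 0 of 9 tested passed in either direction (median -0.11), 0 were higher and 2 lower at an unadjusted p under 0.05, DESeq2 called 0, and limma-voom called 3 lower. From 20 to 26 weeks 4 fell and none rose with edgeR, with 0 higher at an unadjusted p under 0.05 and by DESeq2 and 1 higher by limma-voom. Over all genes tested, 7.98% fell and 8.03% rose in that comparison with edgeR. Gabpa, a subunit of the factor that binds the ETS letters, changed by -0.70 ± 0.23 (SE, edgeR adjusted p = 0.0484) from 20 to 26 weeks, and Polg, the mitochondrial DNA polymerase, by -0.97 ± 0.23 (SE, edgeR adjusted p = 0.00762). Mitochondrial ribosomal proteins had 10 of 68 higher and 1 lower at 26 than at 14 weeks (median 1.14), and cytosolic ribosomal proteins 49 of 73 higher and 0 lower (1.91). The shares over all genes tested were 5.45% higher and 5.54% lower. Differences between these lists and the respiratory chain were not tested.

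Markers of other cells moved in several ways beside the members. Over all genes tested, 5.45% were called higher and 5.54% lower from 14 to 26 weeks, and 8.03% and 7.98% from 20 to 26 weeks. Of 5 tested B cell markers 0 were called from 14 to 26 weeks and 1 was lower from 20 to 26 weeks. The 9 in the table summed to 49.5 to 199 CPM at 14 weeks, 244 to 1873 CPM at 20 weeks and 87.6 to 296 CPM at 26 weeks, with Blk and Fcer2a averaging below 1 CPM. Plasma cell markers had 3 of 3 tested higher from 14 to 26 weeks and 2 of 3 lower from 20 to 26 weeks, with sums of 129 to 186, 349 to 2075 and 184 to 689 CPM. Monocyte and macrophage markers had 1 of 5 higher from 14 to 26 weeks, and 1 higher and 4 lower from 20 to 26 weeks. Their sums were 770 to 1014, 891 to 1439 and 784 to 1620 CPM, and C1qa, C1qb and Ccr2 averaged below 1 CPM. T cell markers had 0 of 4 tested called from 14 to 26 weeks (median log2 change 0.81) and 1 higher from 20 to 26 weeks (median 2.51), with sums of at most 151, 102 and 382 CPM at the 3 ages, and Cd3e and Cd8a averaged below 1 CPM. Erythroid markers summed to at most 2.42 CPM at 14 weeks, 6.82 CPM at 20 weeks and 265 CPM at 26 weeks. The medians of these sums were 0.208, 0.380 and 8.19 CPM, and the lowest library of 26 weeks had 0.227 CPM. Of 11 tested neutrophil markers 5 were higher and 3 lower from 14 to 26 weeks (median 0.19), and 7 were higher and 1 lower from 20 to 26 weeks (median 1.58). S100a8 averaged 4716 ± 488, 2046 ± 747 and 24514 ± 17964 CPM at the 3 ages and Mmp9 averaged 11615 ± 1547, 7190 ± 1074 and 6210 ± 1506 CPM (mean ± SD, n = 6). The part of these markers in the members' values was not tested.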

How the data were processed

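RNA sequencing libraries of sorted splenic neutrophils (18 mice, 6 at each of 3 ages) were read from a single end after a Nextera XT preparation, per the labels' protocols. The deposited values are whole-number counts of reads, 1 row for each gene symbol. The authors' tools, per the submitters' processing notes, were DESeq2 1.12.3, DESeq, HTSeq 0.6.1, STAR 2.4.2a and Trimmomatic 0.32, with GRCm38.p4 as the build; the gene annotation, the strand setting and any use of reads with several matches, not given in the sources used here, can change the counts. Values were checked to be whole, 0 rows name no gene, and the smallest gene total is 2. Groups and replicate numbers come from the titles, and the labels name no batch. Counts are reads without molecular identifiers, so a floor of 3 counts covers counting error only. Libraries of an age differed beyond counting error (chi-square per gene 26.1 to 182), and p-values measure the spread between these samples.

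The test was edgeR's quasi-likelihood F test (edgeR 4.0.16, R 4.3.3) from 1 robust fit of 18 libraries with age as its sole factor, after TMM scaling and filterByExpr by age, with Benjamini-Hochberg adjustment over 10104 genes with a threshold of 0.05. The script was checked on simulated counts with 200 changed genes. CPM used TMM-scaled totals of tested genes, log2 CPM a prior count of 2, and the SE is the log2 change over the square root of F. Transcript lengths are those of the principal transcript in GENCODE M21. Pseudogene copies were sought by alignment at 95% identity over 100 bases.

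The members and lists were chosen with earlier results of these data known. Levels at 3 ages are given, for each complex, for the 2 members with the highest mean CPM and those with the largest and smallest change from 14 to 26 weeks, for Cycs, for members called lower and for fixed isoform sets; Ndufs7 was added after its values were seen, and some genes that the rules name are not reported here. Of other lists the 2 genes with the smallest p may be named. Alternatives were RLE and upper quartile factors, TMM factors without members, ribosomal and mitochondrial genes, DESeq2 1.42.0, limma-voom (limma 3.58.1) with quality weights, no filter, a block for replicate number, a filter of 10 CPM in 6 libraries, fits of a single pair of ages, removal of immunoglobulin and cell marker genes, loess corrections (span 0.5) for length or GC content, and each library left out. 2 further fits without a pair of libraries were chosen after seeing the data.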

Additional observations from a re-analysis of the deposited data

Results flagged for a closer look

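In sets of 6 libraries of an age, 9 of 111 examined had 1 library far from the other 5 by Dixon's criterion. Chance alone gives this in about 1 in 20 sets of normally spread values. Cox6b2 at 20 weeks and Cox4i2 at 26 weeks had counts in a single library, where the criterion is met by construction. The 9 can therefore not be set against that rate. At 14 weeks these were replicate 2 for Cox6b1 (43.9 CPM, next highest 26.6), replicate 6 for Cox6b2 (1.47 CPM, next 0.407), replicate 4 for Ndufc1 (0.257 CPM, next lowest 1.25) and replicate 2 for Ndufv3 (24.1 CPM, next lowest 35.1). At 20 weeks replicate 1 stood apart for Cox6b2 (0.247 CPM, others 0) and replicate 4 for Cox7a2l (38.5 CPM, next 27.9). At 26 weeks replicate 1 was low for Atp5a1 (140.1 CPM, next lowest 182), replicate 2 high for Cox4i2 (0.209 CPM, others 0) and replicate 4 high for Cox7a1 (0.207 CPM, next 0.0567).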

How the results depend on the processing

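The median of the members stayed above 0 in both comparisons with 26 weeks in all 32 alternatives. Of 49 members called from 14 to 26 weeks, 32 were called with the replicate number as a block, 15 after correction for transcript length and 8 without the 26 week libraries highest in ribosomal RNA; leaving out 1 of the 18 libraries gave 32 to 56, the lowest without 26 weeks replicate 1. The 49 calls from 20 to 26 weeks became 23 without that pair of libraries, and 39 to 57 with 1 library left out. The 3 calls between 14 and 20 weeks became 1 with no filter on low counts, 5 after length correction, and 0 to 3 with 1 library left out (0 without 14 weeks replicate 4, 20 weeks replicate 4 or 20 weeks replicate 6). The cause of these changes was not tested. Same-numbered samples did not deviate together (r from -0.0527 to 0.136 over 18 pairs, 1 over 0.1, and 0 libraries closest to their own number), so the numbers were not taken as pairs. Of 34 called results for single named members, 13 kept direction and call in every alternative, and 38 of 50 uncalled ones were called in none. The median log2 change of the members ran from 0.65 to 1.52 against 14 weeks and from 0.83 to 1.48 against 20 weeks. Over all genes, the 1030, 1111 and 1617 calls (20 against 14, 26 against 14, 26 against 20 weeks) became 1727, 1808 and 2553 with DESeq2. The 1111 became 2633 with limma-voom, 1710 with only the ages compared, 632 after length correction, 652, 733 and 726 without 26 weeks replicates 1, 2 and 6, 192 without the pair highest in ribosomal RNA and 1942 without 26 weeks replicate 4 and 20 weeks replicate 3; the 1617 became 699 without that pair.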
